A study of Homo sapiens with 10 samples.

Results

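A set of 10 secreted factors, receptors and enzymes of blood vessel growth and vascular tone was followed in glioblastoma cells in which the homeobox transcription factor MEOX2 was silenced or overexpressed: VEGFA, VEGFB, VEGFC, PGF, EDN1, ECE1, EDNRA, EDNRB, THBS1 and ANGPT1. These 10 genes, of 34567 in the deposited table, were chosen by name around EDN1, which was selected on its higher level in both perturbed cell lines, so the values of EDN1 under silencing and overexpression are a description and carry no test. All 10 passed the filter on low counts that left 17312 genes for testing. EDN1 passed it only through the perturbed samples, since no control sample held more than 4 EDN1 reads.

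RNA-seq was performed on 10 libraries from 2 human glioblastoma cell lines grown in serum-containing DMEM. SNB19 cells received Scramble siRNA (NC, n = 3) or siRNA against MEOX2 (siMEOX2, n = 3) by lipofection. U87 cells received lentivirus with an empty vector (EV, n = 2) or with MEOX2 (OE, n = 2), and per the study's methods stable U87 cells were selected with puromycin. The promoter of the lentiviral construct was not given in the sources used here. The methods give 2 siRNAs against MEOX2 but not which of them was used for these libraries. The labels do not say whether the replicates came from separate cultures, so p-values measure only the spread between these libraries, which may be technical. Silencing and overexpression were each done in 1 line, and cell line, delivery method and control type cannot be told apart. Libraries held between 12533775 and 16560324 counts assigned to genes.

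Vascular endothelial growth factors (VEGFs) are secreted proteins that bind receptor tyrosine kinases on endothelial cells and the neuropilin co-receptors. VEGFA is the main driver of vessel sprouting and of permeability in glioblastoma, VEGFC is best known for growth of lymphatic vessels, and VEGFB and PGF bind the receptor encoded by FLT1. EDN1 encodes preproendothelin-1; furin and the endothelin converting enzyme ECE1 process it to the vasoconstrictor peptide endothelin-1, which acts on the receptors EDNRA and EDNRB. THBS1 is a matrix glycoprotein that inhibits angiogenesis and activates latent TGF-beta, and ANGPT1 is the ligand that stabilises vessels through the TIE2 receptor.

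The promoter of EDN1 is shown because this gene led the choice of the set. RefSeq gives 3 starts for EDN1. The one at position 12290361 lies 2 bases from the start of the gene in the GENCODE annotation. The 250 bases before it, on the plus strand of GRCh38.p14 at chr6:12290111-12290360, are given 5′ to 3′, with the match to the hypoxia response core in capitals.
EDN1: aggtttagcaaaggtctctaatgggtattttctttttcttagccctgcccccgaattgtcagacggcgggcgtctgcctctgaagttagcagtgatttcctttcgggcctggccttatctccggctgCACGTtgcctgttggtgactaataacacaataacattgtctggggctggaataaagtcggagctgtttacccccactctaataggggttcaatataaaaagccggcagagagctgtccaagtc
Of the motifs searched on both strands, the hypoxia response core ACGTG matched here in reverse and is present in 18.5% of 35116 promoter windows of this length. The homeodomain core TAATTA, present in 4.35% of windows, the AP-1 site TGANTCA, in 6.57%, and the GC box GGGCGG, in 42.6%, had no match in the EDN1 window. A match is a description of the letters only, and no match says only that these letters are not in this window. RefSeq windows were matched for 8 of the 10 genes.

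EDN1 lies on chromosome 6 of GRCh38 at 12290363 to 12297194 on the plus strand, and VEGFA on the same chromosome at 43770184 to 43786487. VEGFB lies at chromosome 11, 64234538 to 64238793, VEGFC at chromosome 4, 176683538 to 176792727, and PGF at chromosome 14, 74941834 to 74955784. ECE1 lies at chromosome 1, 21217247 to 21345572, EDNRA at chromosome 4, 147480917 to 147544954, EDNRB at chromosome 13, 77895481 to 77975529, and THBS1 at chromosome 15, 39581079 to 39599466. All are protein-coding genes whose reads were counted over exons. Exons of VEGFA, ECE1, EDNRB and THBS1 overlap a gene on the opposite strand, and reads of the partners cannot be told apart since the kit did not mark strand. Of these partners FSIP1, beside THBS1, had at most 41 counts, and the partners of ECE1 and EDNRB at most 5 and 1.

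The targeted gene was examined first. MEOX2 was measured at 6.01, 6.53 and 7.09 FPKM (fragments scaled to gene length and to the library total) in the NC samples and at 1.38, 1.11 and 1.39 FPKM after silencing. The groups did not overlap, and MEOX2 fell by 2.42 on the log2 scale (SE 0.14, edgeR adjusted p = 9.1e-05). U87 EV held 0 MEOX2 reads in both libraries, and OE held 4999 and 5308 reads, or 159.5 and 145.1 FPKM. That is at least 3821-fold higher than a floor of 3 counts over the EV group. The lines thus started from different levels, with MEOX2 measured in SNB19 and not detected in U87 EV. Its paralogue MEOX1 was also lower in the silenced cells, with 134, 129 and 125 counts in NC and 44, 22 and 30 in siMEOX2 (log2 fold change -2.06, edgeR adjusted p = 0.0018).

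One library stood apart before any gene was compared. In U87 EV replicate 1, ribosomal protein genes took 13.0% of counts against 4.04% to 6.68% in the other 9 libraries, and the longest genes, those of at least 8.15 kb, took 13.3% against 22.3% to 25.7%. Its log2 ratio to EV replicate 2 had a standard deviation of 0.98 over genes and fell with gene length (Spearman rho across genes = -0.40, a description, since genes share the libraries). The other replicate pairs had standard deviations between 0.26 and 0.31. Among the 10 genes, the log2 ratio of EV replicate 1 to EV replicate 2 was 1.68 for VEGFB, the shortest at 1.54 kb, -1.18 for VEGFA, the longest at 14.4 kb, -1.71 for THBS1 and 2.37 for PGF. Results of U87 OE against EV and between the control lines are therefore given with and without this library for most of the 10 genes. For genes of the other lists, the calls on overexpression that change without it are named. Its part in each result beyond these values was not tested.

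**Figure D1:**
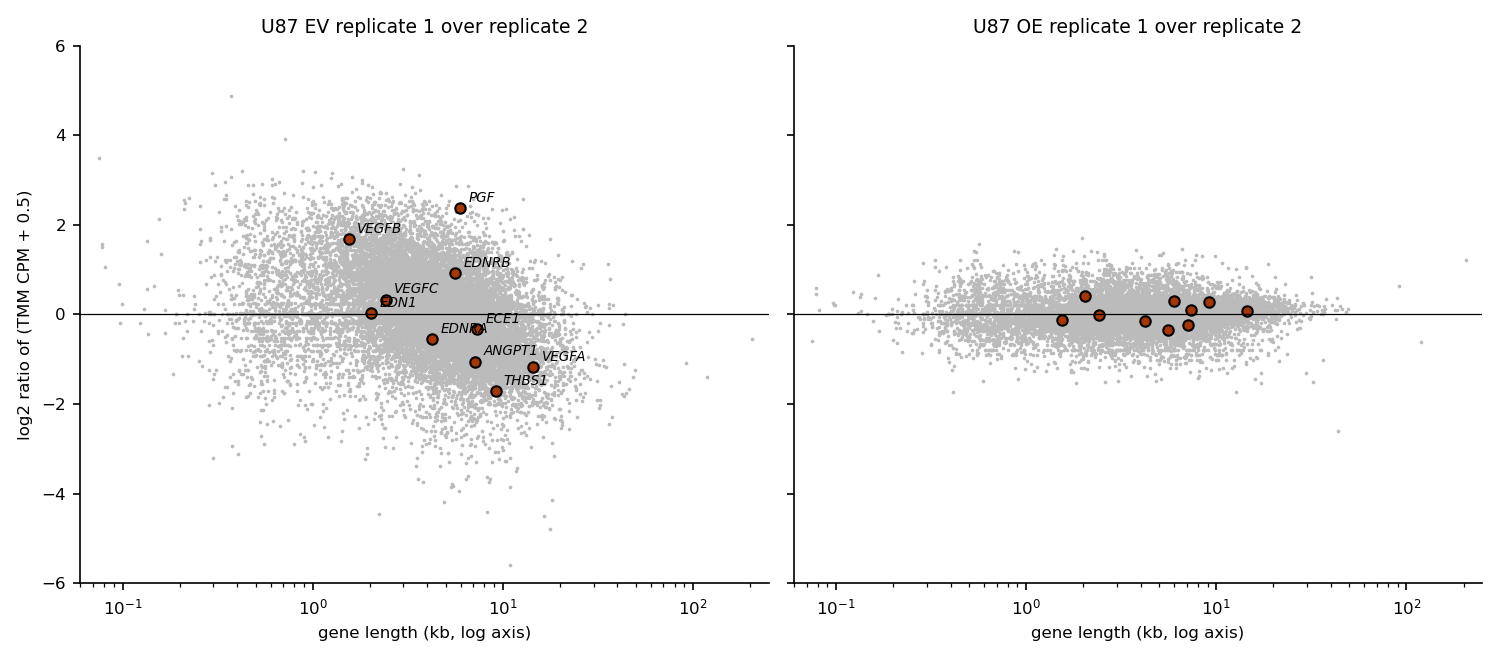
Log2 ratio of the replicates of U87 EV (left) and U87 OE (right) against gene length in kb on a log axis, for 17312 genes (grey) and the 10 angiogenic genes (brown). Over all genes the EV ratios spread widely and fall with length, and those of the 10 genes run from 2.37 for PGF, which lies above the trend, to -1.71 for THBS1, while the OE ratios stay near 0.

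Levels per length in the control cells differed between the lines for most of the set. VEGFC (40.7 ± 2.29 FPKM, SD, n = 3), VEGFB (37.1 ± 1.74) and ECE1 (20.4 ± 0.38) led in SNB19 NC, followed by THBS1 (15.7 ± 0.36), VEGFA (5.38 ± 0.24) and PGF (3.31 ± 0.08). ANGPT1 (0.68 ± 0.09), EDN1 (0.10 ± 0.03) and EDNRB (0.04 ± 0.03) were below 1 FPKM, and EDNRA had 0 reads in all 3 libraries. VEGFC and VEGFB were neighbours in this order that did not separate beyond their spread. In U87 EV replicate 2 the order was ECE1 at 75.6 FPKM, VEGFA at 68.6, VEGFB at 63.1 and VEGFC at 43.4, with EDNRA at 3.41 and all others below 1 FPKM. EV replicate 1 gave another order, VEGFB at 147.5 FPKM, ECE1 at 44.2, VEGFC at 39.9, VEGFA at 22.1 and EDNRA at 1.67, so the order of these genes in U87 EV does not hold beyond the spread.

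Of the 10 genes, 8 differed between SNB19 NC and U87 EV at an edgeR adjusted p below 0.05, 2 higher in SNB19 and 6 lower. EDNRA and EDNRB, among the 6, passed the filter on low counts only through U87, where they are higher, so their calls add no support to the count. Of all genes tested, 56.9% differed, 28.1% higher and 28.8% lower. The median log2 difference of the set was -1.11, against 0.03 over all genes, and -0.56 without EV replicate 1. Without EV replicate 1, 7 of the 10 differed, against 63.4% of all genes. The split of calls depends on scaling: 49.4% of all called genes were higher in SNB19 with TMM and 68.3% with FPKM, where the median of all genes shifts to 0.41.

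THBS1 and PGF were higher in SNB19. THBS1 counts were 2330, 1975 and 2287 in NC and 1 and 19 in EV, a log2 difference of 7.41 (SE 0.54, edgeR adjusted p = 4.7e-06) that became 6.57 without EV replicate 1. PGF had 327, 278 and 299 counts against 32 and 2. The 2 EV values of PGF differed so much that its log2 difference moved from 3.70 (SE 0.63) to 6.89 (SE 0.38) without EV replicate 1.

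EDNRA showed the opposite distribution, with 0 counts in every NC library and 114 and 203 counts in EV, at least 160-fold higher in U87 EV than a floor of 3 counts over the NC group. Among the controls, the endothelin A receptor transcript was thus detected in U87 and in no SNB19 library. EDNRB, the B receptor, was near the detection limit in both lines, with 6, 3 and 1 counts in NC and 13 and 5 in EV. Its difference was -1.81 on the log2 scale (edgeR adjusted p = 0.046), and -0.84 without EV replicate 1. The call was lost without EV replicate 1 or NC replicate 2 or 3, and without the filter on low counts. DESeq2, limma on FPKM and the replicate block did not call it either. In the fit on the groups compared EDNRB did not pass the filter on low counts and was not tested. The log2 difference of SNB19 NC from U87 EV was -3.35 (SE 0.28) for VEGFA, -1.89 (SE 0.13) for ECE1 and -1.98 (SE 0.37) for VEGFB, and without EV replicate 1 it was -3.82, -2.04 and -0.92. VEGFC was lower in SNB19 by 0.41 (SE 0.13), and the lines overlapped in its FPKM values. This call was lost without NC replicate 1 or 3, without the filter on low counts, in the fit on the groups compared, with the replicate block and with limma on FPKM, where the difference was -0.03. EDN1, with 9 reads over 3 NC libraries and 2 over the EV libraries, and ANGPT1 did not pass the test (adjusted p = 0.32 and 0.62). The counting interval of the EDN1 ratio of NC to EV, 2.97, ran from 0.61 to 28.2 (95%, exact, counting error only), so a difference in the resting level of EDN1 was not detectable at this depth.

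**Figure D2:**
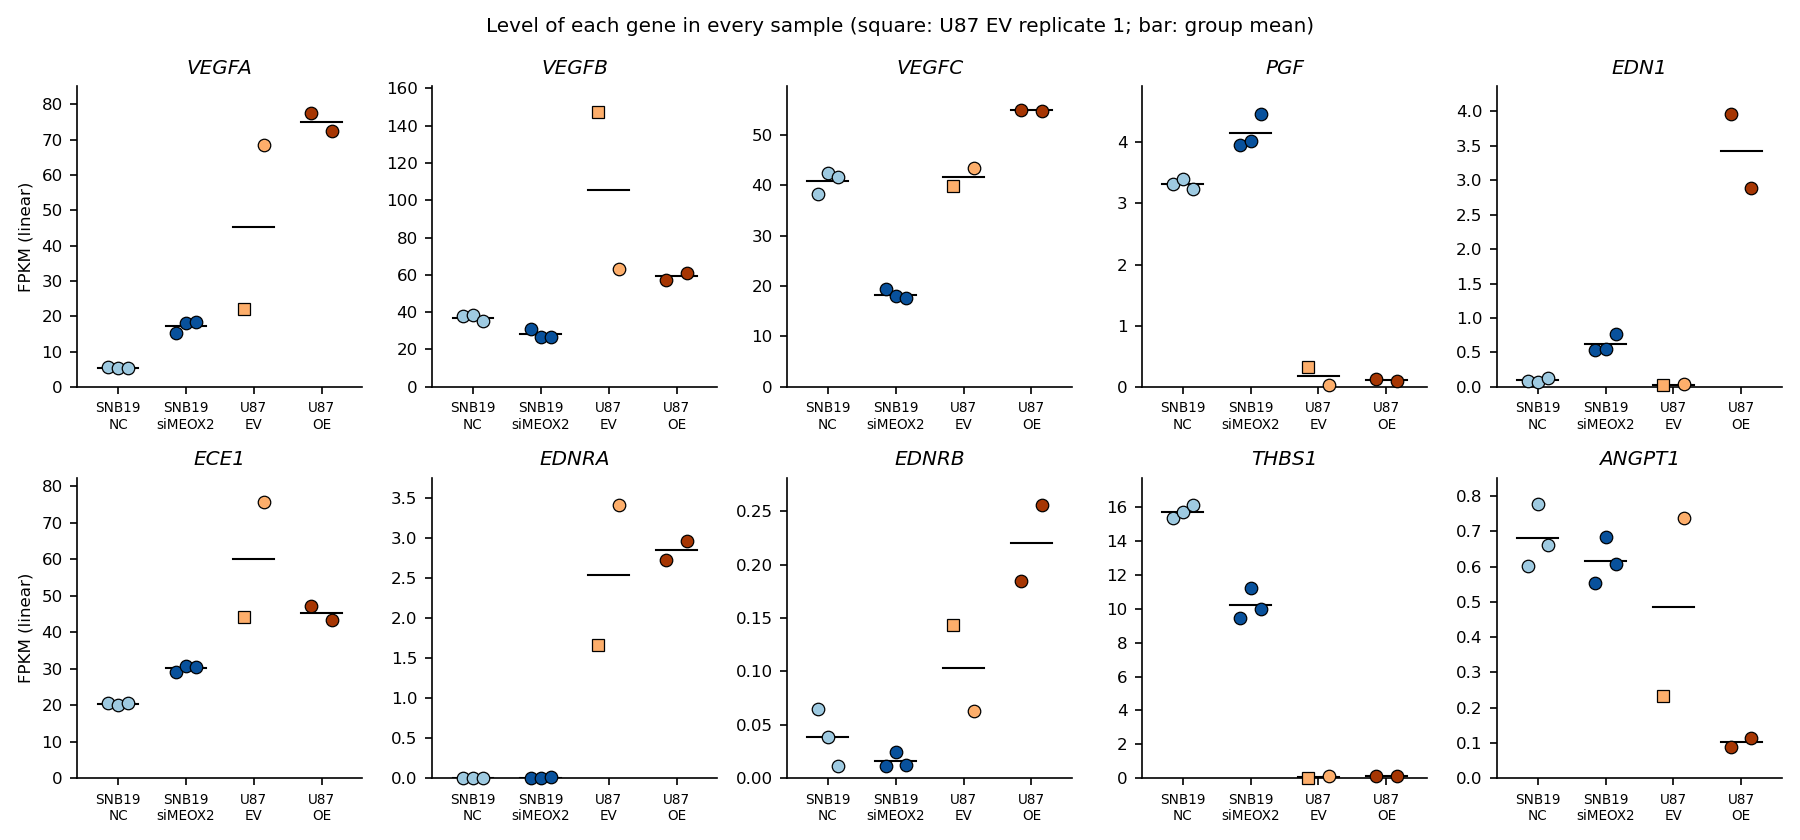
FPKM of each of the 10 genes in all 10 samples on linear axes from 0, by group, with the group mean as a bar and U87 EV replicate 1 as a square. EDNRA lies at 1.67 to 3.41 FPKM in U87 and at no more than 0.017 FPKM in SNB19, THBS1 and PGF lie mainly in SNB19, EDN1 is highest in U87 OE at 3.96 and 2.89 FPKM, and the 2 EV samples lie far apart for VEGFA and VEGFB.

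MEOX2 silencing in SNB19 was accompanied by more VEGFA and ECE1 and less VEGFC transcript, and EDN1 was higher in each silenced library. EDN1 had 3, 2 and 4 counts in the NC libraries and 17, 16 and 22 in the siMEOX2 libraries, or 0.10 ± 0.03 and 0.62 ± 0.13 FPKM (SD, n = 3 each). All siMEOX2 values lay above all NC values. The ratio of summed counts, scaled to library totals, was 6.34 with a counting interval of 3.11 to 14.6, and the log2 fold change was 2.53 (SE 0.36). These values chose the set and support nothing further.

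Of the 9 other genes, 3 passed the test, VEGFA and ECE1 higher and VEGFC lower. Over all genes 15.7% passed, 6.99% higher and 8.75% lower, and the share of calls that were higher went from 44.4% to 57.9% on the FPKM scale, whose median over all genes is 0.07. The median log2 fold change of the 10 genes was 0.00, against 0.00 over all genes, and -0.23 when EDNRA, with 0 counts in NC, is set aside. Both medians of the set include EDN1, whose values chose it, so they do not describe the 9 other genes alone.

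VEGFA, the sprouting factor, had 5.66, 5.24 and 5.25 FPKM in NC and 15.3, 17.9 and 18.4 FPKM in siMEOX2. The silenced libraries were all higher than the controls, with a log2 fold change of 1.59 (SE 0.25, edgeR adjusted p = 0.0039). VEGFC moved the other way, from 38.1, 42.5 and 41.6 FPKM to 19.3, 18.0 and 17.5 FPKM. Again the groups did not overlap, and VEGFC fell by 1.24 on the log2 scale (SE 0.12, edgeR adjusted p = 0.00054). The converting enzyme ECE1 went from 20.5, 20.0 and 20.7 FPKM to 29.1, 30.9 and 30.4 FPKM, a log2 fold change of 0.47 (SE 0.11, edgeR adjusted p = 0.024). The ECE1 call was lost when any one of the SNB19 libraries was left out of the joint fit, without the filter on low counts, with the replicate block and with limma on FPKM.

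THBS1 had 15.4, 15.7 and 16.1 FPKM in NC and 9.46, 11.2 and 9.97 FPKM in siMEOX2. VEGFB had 37.9, 38.3 and 35.1 FPKM against 31.2, 26.6 and 26.6 FPKM, and PGF 3.31, 3.40 and 3.23 FPKM against 3.96, 4.02 and 4.46 FPKM. The log2 fold changes of -0.71 for THBS1, -0.48 for VEGFB and 0.23 for PGF did not pass the joint test (edgeR adjusted p = 0.16, 0.38 and 0.78). Their groups did not overlap, but the share of all genes separated in this way was not counted, so no reading is drawn from it. The joint fit shares its estimate of spread with U87, where EV replicate 1 stands apart. In a fit on the 6 SNB19 libraries alone the fold changes were nearly the same, and 6 of the 7 other genes that could be tested passed, VEGFA, ECE1 and PGF higher and VEGFC, THBS1 and VEGFB lower. That fit called 55.9% of 15525 genes, 27.4% higher and 28.5% lower, so 6 of 7 has to be read against a high background. The adjusted p of THBS1 in it was 4.8e-09 and that of VEGFB 2.5e-05. With all samples THBS1 was also called lower by DESeq2, by edgeR without the filter on low counts (adjusted p = 0.032) and by limma on log2(FPKM + 1) (adjusted p = 0.0061).

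ANGPT1 did not pass in either fit, with 71, 76 and 73 counts against 62, 70 and 61 (adjusted p = 0.65 in the joint fit). EDNRA stayed at 0 counts in 2 of the 3 silenced libraries and had 1 count in the third, and EDNRB had 10 counts over NC and 4 over siMEOX2. At this depth no change in either receptor was detectable. More EDN1 transcript was thus measured in SNB19 cells with nearly no endothelin receptor transcript of either kind.

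MEOX2 overexpression in U87 was accompanied by less ANGPT1 and ECE1 transcript, while EDN1 was far above the vector control. EDN1 had 1 and 1 counts in EV and 101 and 86 in OE, or 0.03 and 0.03 FPKM against 3.96 and 2.89 FPKM. The ratio of summed counts was 104, with a counting interval of 28.4 to 865, and the log2 fold change was 6.34 (SE 0.47), or 6.49 without EV replicate 1. The width of the interval comes from 2 counts in EV. Here too the values of EDN1 chose the set.

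Of the 9 other genes, 2 passed the test and both were lower, ANGPT1 and ECE1. Over all genes 26.2% passed, 11.3% higher and 14.9% lower, and the share of calls that were higher went from 43.0% to 58.2% on the FPKM scale, whose median over all genes is 0.16. A fit on the 4 U87 libraries alone called 0 of 14180 genes with edgeR, where 1132 were higher and 1511 lower at an unadjusted p below 0.05; DESeq2 with all libraries called 2714 higher and 3165 lower. Without EV replicate 1, 4 of the 9 passed, VEGFC and PGF higher and ANGPT1 and ECE1 lower, against 38.9% of 18318 genes, 20.4% higher and 18.4% lower. The median log2 fold change of the 10 genes was 0.07, against -0.02 over all genes. This median includes EDN1, whose values chose the set, so it does not describe the 9 other genes alone.

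ANGPT1, the vessel-stabilising ligand, had 27 and 74 counts in EV and 8 and 12 in OE. Both OE values lay below both EV values, and ANGPT1 fell by 2.37 on the log2 scale (SE 0.43, edgeR adjusted p = 0.0045), or by 2.79 without EV replicate 1. The call was lost with limma on log2(FPKM + 1) (-0.41, adjusted p = 0.064). ECE1 had 44.2 and 75.6 FPKM in EV and 47.1 and 43.3 FPKM in OE. These overlapped in FPKM, which divides by the library total. With library sizes scaled by the trimmed mean of M values (TMM), ECE1 stood at 467 and 583 counts scaled by depth (CPM) in EV against 359 and 335 in OE, without overlap, and fell by 0.60 on the log2 scale (SE 0.14, edgeR adjusted p = 0.015), or by 0.71 without EV replicate 1. The call for ECE1 was lost without either OE library and with limma on FPKM.

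VEGFA had 22.1 and 68.6 FPKM in EV and 77.6 and 72.6 FPKM in OE. The gap between the EV replicates was larger than the gap between EV replicate 2 and OE, and the log2 fold change was 0.59 (SE 0.30, edgeR adjusted p = 0.17), 0.16 (SE 0.09) without EV replicate 1 and 1.33 (adjusted p = 1.5e-13) without EV replicate 2. VEGFB, at 147 and 63.1 FPKM in EV and 57.0 and 61.2 FPKM in OE, went from -1.17 (SE 0.41) to -0.06 (SE 0.11) without EV replicate 1. In edgeR with the filter on low counts, neither gene passed with all libraries or without EV replicate 1. VEGFB was called lower without EV replicate 2 (-1.75), by DESeq2 with all libraries (-1.14, adjusted p = 0.033) and by edgeR without the filter on low counts (-1.16, adjusted p = 0.0018).

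VEGFC had 39.9 and 43.4 FPKM in EV and 54.9 and 54.7 FPKM in OE, with a log2 fold change of 0.15 (SE 0.15, edgeR adjusted p = 0.46) that became 0.37 (SE 0.10, adjusted p = 0.0026) without EV replicate 1. VEGFC was also called higher by limma on log2(FPKM + 0.1) (0.40, adjusted p = 0.036), by limma on log2(FPKM + 1) (0.39, adjusted p = 0.033) and by edgeR with the gene-length trend removed (0.38, adjusted p = 0.028). PGF changed direction with that library, from -1.03 (SE 0.85) to 2.20 (SE 0.80). Its counts, 32 and 2 in EV and 10 and 8 in OE, show that the direction is decided by which EV replicate is used. THBS1 had 1 and 19 counts in EV and 19 and 17 in OE, a log2 fold change of 0.80 that became 0.01 without EV replicate 1 and 3.87, then called, without EV replicate 2. The receptor EDNRA, expressed in U87 at 1.67 and 3.41 FPKM in EV and 2.73 and 2.97 FPKM in OE, had a log2 fold change of -0.01 (SE 0.31). EDNRB had 13 and 5 counts in EV and 13 and 21 in OE and did not pass (0.79, adjusted p = 0.36, and 1.82, adjusted p = 0.10, without EV replicate 1).

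**Figure D3:**
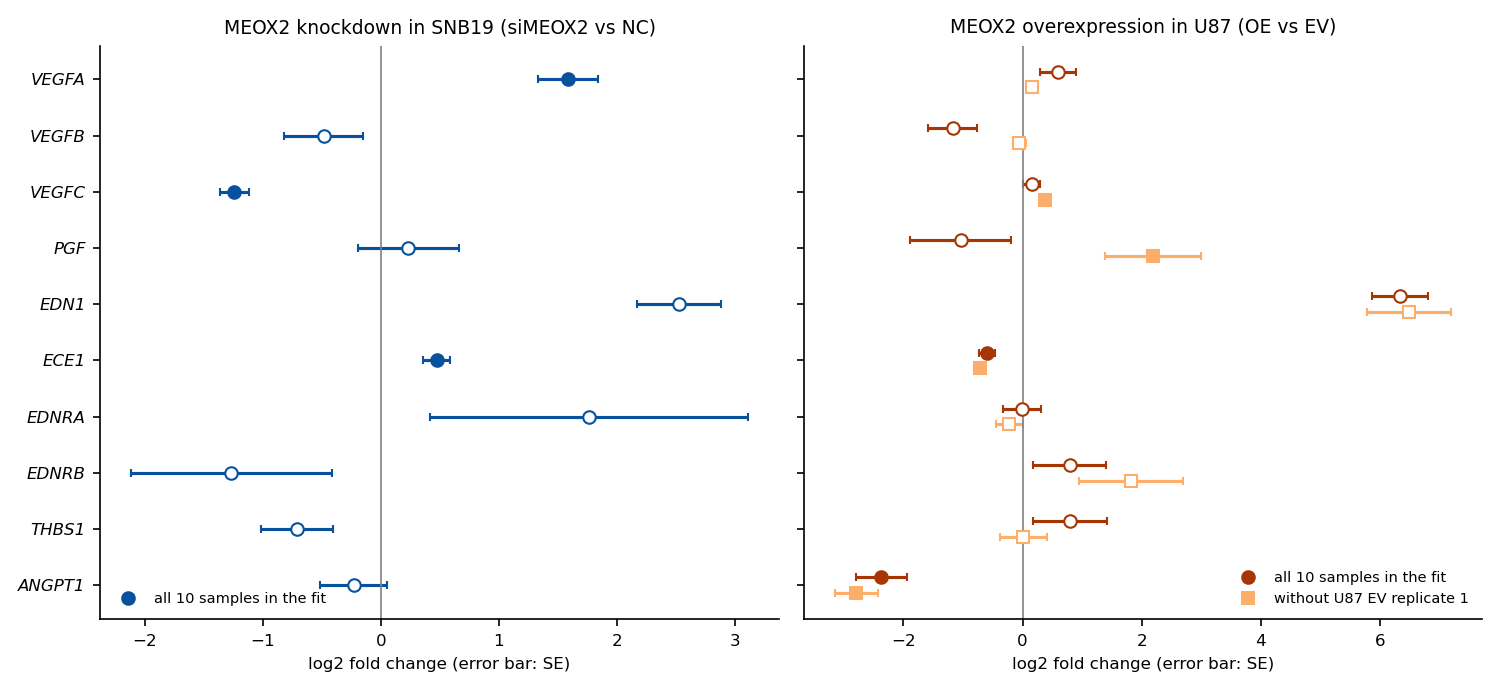
Log2 fold change of the 10 genes after MEOX2 silencing in SNB19 (left) and MEOX2 overexpression in U87 (right), with the SE as error bar; filled symbols passed an adjusted p of 0.05 and the EDN1 symbol is not filled because EDN1 chose the set. EDNRA on the left rests on 1 count. Squares leave out U87 EV replicate 1, which moves VEGFB from -1.17 to -0.06 and PGF from -1.03 to 2.20 but leaves ANGPT1 and ECE1 below 0.

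The 2 perturbations were then compared directly, as the log2 change on silencing minus the log2 change on overexpression. The contrast tests whether the 2 changes are equal. Of the 9 genes other than EDN1, 3 passed, against 15.7% of all genes. ECE1, which rose in SNB19 and fell in U87, differed by 1.07 (SE 0.18, edgeR adjusted p = 0.0062), a call lost with limma on log2(FPKM + 0.1) or log2(FPKM + 1) (adjusted p = 0.056 and 0.0505) and with the replicate block (0.063). VEGFC differed by -1.40 (SE 0.19, adjusted p = 0.0025) and ANGPT1 by 2.14 (SE 0.51, adjusted p = 0.024). The ANGPT1 call was lost without NC replicate 1 or 3, siMEOX2 replicate 2 or 3, or either OE library, with adjusted p between 0.054 and 0.11, and with limma on log2(FPKM + 0.1) or log2(FPKM + 1) (adjusted p = 0.11 and 0.20). For VEGFA the difference was 0.99 (SE 0.39, adjusted p = 0.12), without EV replicate 1 it was 1.42 (SE 0.11, adjusted p = 1.3e-11), and without EV replicate 2 it was 0.26 (adjusted p = 0.042). It was also called without the filter on low counts (0.99, adjusted p = 0.030) and with the gene-length trend removed (1.31, adjusted p = 0.0021). The THBS1 difference was called lower by DESeq2, without that filter and by limma on log2(FPKM + 1). Those of VEGFB and PGF changed sign with the EV replicate left out. EDN1 was higher in both perturbed lines and its changes differed by -3.81, given as a description.

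The other genes of these pathways, from lists drawn up for this purpose, are described by their counts in the joint fit unless stated. These counts stand beside shares over all genes of 6.99% higher and 8.75% lower on silencing and 11.3% higher and 14.9% lower on overexpression, and lists this short allow no reading of a share. Of 6 further VEGF ligands, receptors and co-receptors in the table, 3 were tested. The co-receptors NRP1 and NRP2 both fell on silencing, NRP1 from 12.6 ± 0.42 to 4.22 ± 0.20 FPKM and NRP2 from 11.3 ± 0.54 to 6.13 ± 0.37 FPKM (SD, n = 3 each; edgeR adjusted p = 0.0074 and 0.017). KDR, the main signalling receptor for VEGFA, did not pass in either perturbation and lay between 0.29 and 1.13 FPKM in all 10 samples, and FLT1 and FLT4 had at most 7 reads in any sample. None of the 3 passed on overexpression with all libraries, where the adjusted p of NRP1 was 0.39, and NRP2 fell without EV replicate 1.

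Among 5 other endothelin pathway genes, 3 were tested. FURIN, the protease that cleaves the endothelin precursor, fell from 47.0 ± 0.26 to 28.2 ± 0.59 FPKM on silencing (log2 fold change -0.83, edgeR adjusted p = 0.0030) and did not pass on overexpression. MME, a membrane peptidase that degrades endothelin, rose on overexpression from 3.10 and 8.79 FPKM to 14.7 and 14.6 FPKM (1.16, adjusted p = 0.019). EDN2, a second endothelin, had reads in SNB19 only. It passed the filter on low counts only through SNB19, with 20, 8 and 8 counts in NC, and it did not pass the test on silencing. All U87 libraries held 0 EDN2 counts, so no change on overexpression could be tested. EDN3 and ECE2 had at most 2 reads in any sample.

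In the angiopoietin and TIE list all 5 genes were tested. ANGPT4, an angiopoietin that binds TIE2, rose on silencing from 0.27 ± 0.08 to 1.16 ± 0.21 FPKM (log2 fold change 2.01, edgeR adjusted p = 0.0091) and on overexpression from 0.04 and 0.23 FPKM to 0.96 and 1.49 FPKM (3.05, adjusted p = 0.0038). ANGPT2, which antagonises ANGPT1 at that receptor, had 3 and 2 counts in EV and 19 and 40 in OE, a ratio of 13.1 with a counting interval of 5.32 to 41.9. It passed the filter on low counts only through OE, where it is high, so its call there is no support. The phosphatase gene PTPRB rose on overexpression without EV replicate 1. Of 6 thrombospondins and receptors, 4 were tested. THBS2 and the THBS1 receptor CD47 fell on silencing (-1.43 and -0.81, adjusted p = 0.0065 and 0.0012), and THBS3 fell on overexpression (-1.67, adjusted p = 0.0014), where THBS2 rose without EV replicate 1.

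Of 13 other pro-angiogenic secreted factors, all tested, 3 rose and 3 fell on silencing, and 5 rose and 4 fell on overexpression. The chemokine CXCL8 rose in both, from 2.63 ± 0.62 to 14.2 ± 3.72 FPKM on silencing and from 40.7 and 55.7 FPKM to 1056 and 1139 FPKM on overexpression, with log2 fold changes of 2.34 and 4.29 (edgeR adjusted p = 0.00050 and 4.7e-05). The matricellular factor CYR61 rose by 1.90 and 1.02, and FGF2, basic fibroblast growth factor, by 1.13 and 2.26. PTN, pleiotrophin, fell by 2.75 and by 1.30. Also lower on silencing were the platelet-derived growth factors PDGFB and PDGFA. On overexpression ESM1, an endothelial proteoglycan, had 39 and 69 counts against 0 in both EV libraries, at least 40.0-fold higher than 3 counts over the group, and likewise passed the filter only through OE. Among the others ADM, adrenomedullin, rose by 1.43 and APLN, the apelin precursor, fell by 2.88. The list's median was 0.31 on silencing, or -0.11 when ESM1, which had 0 counts in NC, is set aside. On overexpression it was -0.70, or -0.84 with ESM1 at its bound and PDGFB set aside. Without EV replicate 1 the overexpression median was 0.00, or -0.09 with ESM1 and PDGFB treated in the same way. The 0.00 is the value given to PDGFB, which had 0 counts in every U87 library. Without that replicate HGF fell and FGF1 was no longer called.

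Of 11 anti-angiogenic factors, 10 were tested. The protease ADAMTS1, which binds VEGFA, rose on silencing by 1.53 and on overexpression by 2.19 (edgeR adjusted p = 0.023 and 0.0017). On silencing COL18A1, the source of endostatin, SEMA3F and SPARC fell, and on overexpression SEMA3A rose and TIMP3, SPARC and VASH1 fell. SPARC was at 122.7 ± 2.19 FPKM in NC and 71.2 ± 2.14 in siMEOX2, and at 48.7 and 68.8 FPKM in EV and 14.1 and 15.2 in OE. The list median was -0.62 on silencing and -0.32 on overexpression.

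VEGFA belongs to the class of hypoxia-responsive genes, of which 10 others were tested. On silencing 3 of 10 rose and none fell, NDRG1 (log2 fold change 1.13), BNIP3 (0.59) and PDK1 (0.56), with 9 of 10 called higher in the fit on SNB19 alone, where 27.4% of all genes were. On overexpression none rose and 6 fell. CA9, carbonic anhydrase IX, had 2917 and 1024 counts in EV and 2 and 3 in OE. LDHA fell by 1.93, BNIP3 by 1.90 and NDRG1 by 1.55, and PGK1 and PDK1 were also lower. Of the 10, 7 passed the test of the difference between perturbations, as did 15.7% of all genes. The list median was 0.44 on silencing. On overexpression it was -0.76, or -0.87 when EGLN3, with 0 counts in EV, is set aside. VEGFA itself had log2 fold changes of 1.59 and 0.59 in the same comparisons, of which the first passed the test. Without EV replicate 1, KDM3A rose and 7 of the 10, now with SLC2A1, fell on overexpression, beside 20.4% and 18.4% of all genes.

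Of 10 transcription regulators of EDN1 and VEGFA, 1 rose on silencing in the joint fit, FOS (1.36, edgeR adjusted p = 0.0095), at 0.78 ± 0.13 against 2.14 ± 0.18 FPKM. The fit on SNB19 alone called 6 higher, FOS, FOSL1, EPAS1, JUN, ETS1 and HIF1A, and SP1 lower, where 27.4% of all genes were higher and 28.5% lower. JUN, HIF1A and FOSL1 rose on overexpression, by 1.87, 0.85 and 0.39 (adjusted p = 0.00086, 0.020 and 0.048), and without EV replicate 1 ETS1 and EPAS1 also rose and SMAD3 fell. JUN had 45.8 and 110 FPKM in EV and 308 and 325 in OE. Among 10 genes that respond to TGF-beta or YAP, CTGF rose on silencing by 0.81 and TGFBI, TAGLN and TGFB1 fell. ANKRD1 was also called higher, by 2.79, with 17, 9 and 8 counts in NC and 102, 63 and 78 in siMEOX2. It passed the filter on low counts only through siMEOX2, where it is high, so its calls are no support. On overexpression ANKRD1 had 0 counts in EV and 6 and 3 in OE, at least 3.34-fold higher than 3 counts over the EV group. SMAD7 rose, and TGFBI, TAGLN and TGFB1 fell again, by 2.78, 1.81 and 1.13. TGFB2 also fell without EV replicate 1. The list medians were 0.22 on silencing and 0.23 on overexpression, the latter 0.00 without EV replicate 1.

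**Figure D4:**
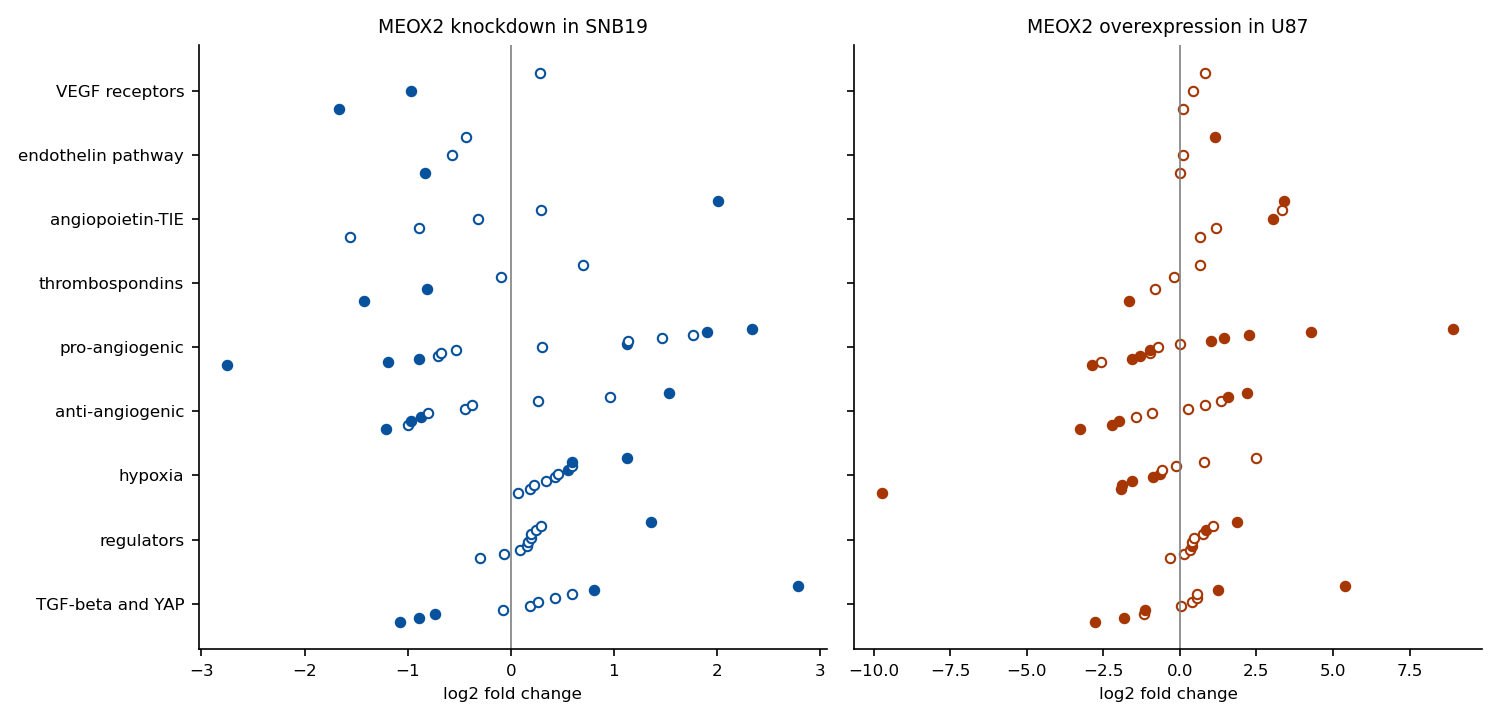
Log2 fold change of every tested gene of the 9 pathway lists on MEOX2 silencing (left) and overexpression (right), each point 1 gene, filled where it passed an adjusted p of 0.05; the axes differ in range. ESM1, ANKRD1, TIE1 and EGLN3, with 0 counts in EV, and on the left ESM1, with 0 in NC, are placed at fitted values that are no bound, and EDN2 and PDGFB, with 0 counts in all U87 libraries, sit at 0 on the right. Hypoxia genes lie above 0 on the left, and 6 of the 10 are filled and below 0 on the right, with CA9 farthest.

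The genes whose pattern over the 10 samples was most like that of EDN1, by Pearson r of log2 CPM after subtraction of the control mean of each line among 13050 genes, were RAP1GAP2 (r = 0.993), FGF13 (0.992), IRGQ (0.992), AL138828.1 (0.991) and RIOK3 (0.991). They are given as a description. The samples share their cell line and control, and the measure is led by the U87 OE libraries, where these genes had log2 fold changes from 1.25 to 4.54.

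Markers of the cells named by the labels and of other cell types were measured beside these results. Of the glial and glioma markers, VIM lay at 81.4 to 687 FPKM and TNC at 39.4 to 275.5 FPKM. VIM was the more abundant in SNB19 and in EV replicate 1, and TNC in the other U87 libraries. S100B had 0 reads in U87 and at most 5 in SNB19, SOX2 was at most 0.10 FPKM in U87, and GFAP did not exceed 0.40 FPKM in any sample. GFAP, TNC, NES, SOX2 and CD44 fell on silencing in the joint fit, and the fit on SNB19 alone also called VIM lower and OLIG2 higher. On overexpression OLIG2 rose and NES and VIM fell, as did the endothelial markers PECAM1 and VWF, the myeloid marker CSF1R and the smooth muscle and pericyte markers MYH11, PDGFRB and ACTA2, and without EV replicate 1 CNN1 rose and CSPG4 fell. The 8 glial and glioma markers summed to 313.9 to 321.3 FPKM in NC, 152.4 to 155.3 in siMEOX2, 808.1 and 589.8 in EV and 469.0 and 439.6 in OE. The 10 endothelial markers summed to 7.27, 6.58 and 7.06 FPKM in NC, 2.24, 2.03 and 2.10 in siMEOX2, 1.24 and 2.24 in EV and 1.95 and 2.22 in OE. Only PECAM1 and KDR of these 10 reached 1 FPKM in any sample, and CDH5 had 0 reads in EV replicate 1, OE replicate 1 and siMEOX2 replicate 2. PECAM1 fell on silencing, from 4.27 ± 0.28 to 0.73 ± 0.14 FPKM. CDH5 had 73, 50 and 72 counts in NC and 6, 0 and 1 in siMEOX2, and passed the filter only through NC, where it is high. Also called lower on silencing were CSF1R and CD14, both myeloid markers that could be tested, and the smooth muscle and pericyte markers DES and CSPG4. CD14 had at most 9 counts outside SNB19 NC, so it too passed the filter only through the group where it is high. The 5 myeloid markers summed to 4.32, 5.05 and 4.59 FPKM in NC, 1.65, 1.19 and 1.63 in siMEOX2, 2.58 and 3.52 in EV and 0.56 and 0.79 in OE, mostly from CSF1R, at 0.48 to 4.06 FPKM, and CD14, at 0.042 to 0.97 FPKM, with the pan-leukocyte marker PTPRC at no more than 0.03 FPKM. Smooth muscle and pericyte markers, led by CNN1 in SNB19 and by CSPG4 in U87, summed to 44.4, 44.8 and 41.5 FPKM in NC, 34.2, 31.2 and 29.6 in siMEOX2, 15.1 and 32.5 in EV and 22.7 and 21.4 in OE. The part of these markers in the results was not tested, and in bulk samples fewer cells of a type and less RNA per cell cannot be told apart.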

How the data were processed

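Poly-A RNA libraries from the 10 samples were sequenced as 150 bp paired reads. Per the labels, the authors aligned reads to GRCh38 with HISAT2 and counted them with HTSeq 0.11.2, and the processing notes name DESeq2 1.26.0. The authors deposited raw counts per gene and FPKM values for 34567 genes; the FPKM divide by gene length and by the total of the column. Counts were tested as deposited with edgeR 4.0.16 in R 4.3.3 (quasi-likelihood test, TMM, filterByExpr with a minimum count of 10, 4 groups in 1 fit over all 10 samples) and Benjamini-Hochberg adjustment over 17312 genes at 0.05. The SE is the log2 fold change divided by the square root of F. FPKM served for levels per length, and counting intervals are exact 95% (Clopper-Pearson) and, like the floor of 3 counts, cover counting error only. The method was tested on simulated data. Changes there were set only in genes with many counts, and no library was made to stand apart like EV replicate 1. The simulation thus does not cover changes of genes with few reads, such as EDN1 and EDNRB. Alternatives were RLE size factors, DESeq2 1.42.0, limma 3.58.1 on log2(FPKM + 0.1) and log2(FPKM + 1), no filter, fits on the groups compared, a replicate block, the study's cut and each library left out; a gene-length correction, a crossed block and the values without EV replicate 1 beside each result were chosen after seeing the data. The genes and lists were chosen with earlier results of these data known. Named were all 10 genes, MEOX2, and from each list up to 4 that passed, by size of change; MEOX1, further list genes and markers were named after their values were seen. Promoter windows came from RefSeq GRCh38.p14 and gene positions from GENCODE. U87 groups were taken from sample titles. Both OE titles carry the same label in parentheses though their names differ. The treatment labels of the U87 samples differ from sample to sample and were not used for the groups.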

Additional observations from a re-analysis of the deposited data

Results flagged for a closer look

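VEGFC, ECE1 and ANGPT1 drew attention because the change on MEOX2 silencing in SNB19 differed from the change on MEOX2 overexpression in U87 by the test of the difference itself. The difference was -1.40 on the log2 scale for VEGFC, which fell on silencing (-1.24) and did not pass on overexpression with edgeR and all libraries (0.15), though it was called higher without EV replicate 1, by limma on log2(FPKM + 0.1) or log2(FPKM + 1), and with the gene-length trend removed. It was 1.07 for ECE1, which rose on silencing (0.47) and fell on overexpression (-0.60). For ANGPT1 it was 2.14, from -0.23 on silencing and -2.37 on overexpression. The ECE1 and ANGPT1 differences did not pass with limma on log2(FPKM + 0.1) or log2(FPKM + 1), and the ECE1 difference not with the replicate block. Without U87 EV replicate 1 the differences were -1.61, 1.18 and 2.56. Cell line, delivery and perturbation cannot be told apart in this contrast.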

How the results depend on the processing

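Whether the replicate numbers mark pairs was not settled. Deviations of same-numbered SNB19 samples correlated at 0.0435, 0.00256 and 0.0588, and not every sample correlated best with its own number. Those of U87 correlated at -0.162. With 2 libraries a group the deviations mirror each other, so this value cannot decide on pairing in U87. With the replicate block, genes higher and lower numbered 391 and 581 on silencing, 924 and 1202 on overexpression and 366 and 332 for the difference, and of the 9 genes other than EDN1 1 passed on overexpression; the ECE1 calls on silencing, on overexpression and for the difference were lost, as were those of VEGFC and EDNRB between the lines. A crossed block called 1721 higher and 1989 lower on overexpression. With only the groups compared in the fit, calls were 4261 and 4422 on silencing (6 of the set other than EDN1), 0 and 0 on overexpression (0 of the set), and 3230 lower between the lines; the difference needs all groups, so this was not run for it. DESeq2 called 1820 higher on silencing and 1948 lower for the difference. Limma on log2(FPKM + 0.1) called 1724 lower on overexpression, 3067 lower between the lines and 1 of the set for the difference; with a pseudocount of 1 these were 2019 higher on silencing, 1610 lower and 1 of the set on overexpression, and 3057 lower between the lines. The study's cut gave 909 lower on silencing, and no filter gave 5 of the set for the difference. Leaving out 1 library gave 482 to 638 higher and 651 to 869 lower with 2 of the set on silencing, 712 to 5583 and 841 to 5346 with 1 to 6 on overexpression, 4114 to 6998 and 4105 to 6541 with 6 to 9 between the lines, and 493 to 4936 and 501 to 5098 with 2 to 7 for the difference. An arm left with 1 library was assumed to vary like the other groups. EDNRA on overexpression, -0.01 with all samples, turned to 0.0257 with RLE and with DESeq2, 0.0182 with the block, 0.0187 with the crossed block, 0.0289 with the length trend removed, 0.24 and 0.17 with limma, 0.35 without EV replicate 2 and 0.063 without OE replicate 1. EDNRA ranged with 1 library left out from -0.22 to 0.35 on overexpression and from 0.0 (without siMEOX2 replicate 3) to 2.21 on silencing, and its difference was -0.17 and -0.16 with limma. Without EV replicate 1, PGF on overexpression was 2.20, ANGPT1 between the lines -0.28, and the differences of VEGFB and PGF -0.42 and -1.96; without EV replicate 2 these were -1.99, 0.90, 1.27 and 2.24. The cause was not tested. Of the fold changes under alternatives, 573 kept direction and side of the threshold, 45 lost it, 27 gained it and 16 reversed. Depth limits EDN1, EDNRB and, in SNB19, EDNRA, where a few reads decide the value.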
